A study of Homo sapiens with 22 samples.

Results

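The 3 established lines of diffuse large B-cell lymphoma (DLBCL) that belong to its activated B-cell-like (ABC) type, Ocily3, Ocily10 and HLY-1, were analysed for their response to combined 5-aza-2'-deoxycytidine and trichostatin A (aza/TSA). They were chosen by the cell line label, and they are 3 of the 11 B-cell lymphoma lines and 6 of the 22 arrays of the series. For each line 1 culture without treatment was compared with 1 culture that received 1 µM aza, renewed every 24 h over 72 h, and 0.5 µM TSA for the last 12 h. The other 8 lines, from Burkitt lymphoma, germinal center type DLBCL (DLBCL GCB) and follicular lymphoma, had the same pair of cultures and serve here only for comparison. Ocily3 and Ocily10 were kept in IMDM with human plasma, whereas HLY-1 and the other 8 lines were kept in RPMI with fetal calf serum. No culture received only 1 of the agents, and an untreated and a treated culture exist once per line, so that the lines are the replicates (n = 3).

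ABC cells resemble B cells on the way to the plasma cell. They are known for constant activity of the transcription factor NF-kB, which is fed by B-cell receptor and Toll-like receptor signalling, for high IRF4, and for autocrine IL6 and IL10 that act through JAK kinases and STAT3, while the later step to the plasma cell is often blocked. Aza traps DNA methyltransferases and so lowers DNA methylation in dividing cells, and TSA inhibits histone deacetylases. Either can raise the transcription of silent genes, and deacetylase inhibitors also lower many highly transcribed genes.

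RNA was measured on Applied Biosystems arrays with 32878 elements, and levels are log2 normalized signals with a median of 10.18 on each array. On this scale 1 unit is a 2-fold difference, and a level below the array median is called low here. Sudhl4, a GCB line, Ocily10 and HLY-1 had arrays that stood apart from the other 16 arrays along the second principal component, which held 13.2% of the variance, and the upper quartile of the raw signal was 2901 to 4547 in HLY-1 and Ocily10 but 7148 to 8861 in Ocily3. Few markers of other cells were above the array median on all 3 untreated arrays of the ABC lines. Of 11 T cell markers and of 9 myeloid markers 0 were, and of 11 epithelial markers 2 were, against 7355 of 15461 named genes. On the single untreated arrays of Ocily3, Ocily10 and HLY-1 the counts were 0, 2 and 3 T cell markers. They were 4, 2 and 3 for myeloid and 5, 4 and 3 for epithelial markers. The part of the array difference in the results was not tested beyond the values given with and without these lines.

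The labels were first compared with marker genes in the untreated cultures. Of 22 measured genes typical of the ABC type, 21 were above the array median in all 3 lines, as were 7355 of all 15461 named genes. The median difference of these 22 from the other 8 lines was 2.68. By limma with Benjamini-Hochberg adjustment over all elements, which gives every adjusted p below, 103 elements were higher in the untreated ABC lines and 52 lower (0.313% and 0.158% of all), and among named genes 0.479% and 0.201%. BATF, CCND2 and CD44, the last named after its value was seen, were the 3 ABC type genes called higher. CCND2, which encodes cyclin D2, stood at 17.20, 17.21 and 16.82 in untreated Ocily3, Ocily10 and HLY-1, and between 7.54 and 11.04 in the other lines. The sets did not overlap. IRF4 stood at 15.63, 15.84 and 16.27 in the ABC lines, above a median of 10.78 in the others, but this difference was not called (4.88, adjusted p = 0.0977). The ABC lines also had higher IL6 (difference 3.15, adjusted p = 0.00584) and PRDM1 (3.97, adjusted p = 0.00542), which encodes the plasma cell regulator BLIMP1. Of 16 measured GCB type genes 6 were called lower, namely MME, BCL6, RGS13 and, named after their values were seen, STAP1, GCSAM and ELL3. MME, which encodes the surface protein CD10, was low in all 3 ABC lines, at 8.86, 9.14 and 9.14, against a median of 14.26 elsewhere (difference -5.22, adjusted p = 0.00029). Of the 16 GCB type genes, 8, 11 and 13 were above the array median in untreated Ocily3, Ocily10 and HLY-1. Over all 15461 named genes these counts were 9103, 9172 and 9154. The ABC type list was thus higher in its median, with 3 genes called, and 6 GCB type genes were lower. The lines carried part of the markers of their label.

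After treatment 959 elements were higher and 1135 lower in the ABC lines (2.92% and 3.45% of 32878), and 20.3% of all elements had an unadjusted p under 0.05. Among the 15461 genes with a name, 629 were higher and 723 lower (4.07% and 4.68%), and these 2 shares are the background for every gene list below. The lists differ from this background in untreated level. Above the array median in all 3 untreated lines were 12 of 14 plasma cell genes, 21 of 32 NF-kB targets and 17 of 28 B-cell identity genes. For GCB type genes it was 6 of 16, for cancer-testis antigens 6 of 26, and for all named genes 7355 of 15461. The part of this in the shares was not tested. The spread behind these tests, and behind every SE given below, was estimated over all 11 lines. An SE is therefore not the spread among the 3 ABC lines alone. With the 3 pairs alone 0 elements passed limma (0.00%), and 5409 (16.5%) had an unadjusted p under 0.05. On simulated differences with 200 changed elements the 3 pairs alone recovered 0% of 2-fold, 4-fold and 8-fold changes. That setting had fewer changed elements than were called here, and noise from the spread over all 11 lines. Its recovery need not hold for these data. The count of 0 is not taken to mean that the ABC lines did not respond. Under median scaling of the raw signals 496 elements were higher and 1587 lower, and without normalization 325 and 1027, with the median log2 fold change of named genes at -0.15 and -0.20 in place of -0.01. Leaving out Ocily3 gave 409 higher and 468 lower elements, leaving out Ocily10 251 and 262, and leaving out HLY-1 503 and 501. Fits with HLY-1 as the only ABC line, all lines in RPMI, leave a single pair in the set. So do fits with Ocily3 as the only ABC line and without Sudhl4, which removes the arrays that stood apart. Their counts rest on that single pair and are listed only among the processing settings. No effect of medium or array set is read from them. The differences of these fits for single genes are given below. A change of at least 2-fold in each of the 3 lines was seen for 871 elements upward and 896 downward (2.65% and 2.73%). The arrays read bulk RNA, so that fewer cells with a transcript and less of it in each cell cannot be told apart.

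The number of changed elements per line lay within the range of the other lines. At least 2-fold higher were 4592 elements in Ocily3, 5547 in Ocily10 and 5151 in HLY-1, and 3955 to 5601 in the other 8 lines. The ABC mean was 5097 ± 479.8 (SD) and that of the others 4925 ± 546.7 (difference 171.4, exact two-sided permutation test over 165 splits of the lines, p = 0.6545, n = 3 and 8). The numbers of elements at least 2-fold lower were 4795, 5688 and 5360, against 3958 to 5920 (same test, p = 0.6545). Of the 959 elements higher in the ABC lines, 790 were also called higher in the other 8 lines, which is 82.4% of the ABC calls and 24.9% of the 3172 calls made there (9.65% of all elements). Of the 1135 lower elements 902 were shared, or 79.5% of the ABC calls and 27.2% of the 3315 calls in the other lines (10.1%). Only 6 elements were called in opposite directions. They include the genes IL7, ST3GAL1, CCND2 and S100Z, and 2 elements have no gene name here.

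The 10 largest increases included genes of meiosis, the heat shock response, AP-1 and chromatin. SYCP3, which encodes a protein of the axes of meiotic chromosomes, was low in untreated Ocily3, Ocily10 and HLY-1, at 8.21, 8.62 and 8.41, and rose to 13.67, 15.12 and 14.14. All 3 lines started below and ended above the array median, with a mean log2 fold change of 5.90 ± 0.56 (SE, adjusted p = 0.0008). FOS, a subunit of the AP-1 transcription factor, went from 9.35, 10.88 and 9.08 to 14.36, 15.17 and 16.26 (5.49 ± 1.02, adjusted p = 0.00925). The replication histone gene H2BC21 was the most even of the 10 between lines, with log2 fold changes of 4.99, 4.71 and 5.07 and a mean of 4.92 ± 0.46 (adjusted p = 0.0008). The heat shock protein gene HSPA1A (5.28), the vitamin B12 carrier TCN2 (5.08), the axonemal dynein DNAH3 (5.29), the fructose-bisphosphatase FBP2 (5.22) and the histone gene H3C10 (4.89) also rose in all 3 lines. HSPA1A, H2BC21 and H3C10 have close paralogs, whose RNA may reach the same element. FOS was not called without HLY-1, nor FBP2 without Ocily10.

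For 2 of the 10 largest increases HLY-1 started high and the lines differed in size of the change. DHRS2, a dehydrogenase that deacetylase inhibitors induce in many cells, stood at 8.99 and 8.07 in untreated Ocily3 and Ocily10 and at 18.57 in HLY-1. After treatment it reached 17.95, 18.87 and 20.01. The log2 fold changes were thus 8.95, 10.80 and 1.44 (mean 7.06 ± 1.34, adjusted p = 0.00979). GAGE4, a cancer-testis antigen of a family of near-identical genes that the element may not separate, behaved likewise, from 8.24, 11.32 and 19.16 to 17.49, 17.84 and 19.82 (5.48 ± 1.32, adjusted p = 0.0285). Without Ocily3 or without Ocily10 neither DHRS2 nor GAGE4 was called, and the mean of GAGE4 was 3.60 without Ocily3.

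The 250 bases before the RefSeq start (GRCh38.p14) of SYCP3 and DHRS2 are shown because the genes with the 2 largest mean increases differ in CG content there. CG dinucleotides are in capitals. The SYCP3 stretch, chr12:101739463-101739712 on the minus strand, holds 19 CG, a number that 34.3% of all 27305 promoters of the table reach. The median of measured genes was 18. The DHRS2 stretch, chr14:23629865-23630114 on the plus strand, holds 0.
SYCP3: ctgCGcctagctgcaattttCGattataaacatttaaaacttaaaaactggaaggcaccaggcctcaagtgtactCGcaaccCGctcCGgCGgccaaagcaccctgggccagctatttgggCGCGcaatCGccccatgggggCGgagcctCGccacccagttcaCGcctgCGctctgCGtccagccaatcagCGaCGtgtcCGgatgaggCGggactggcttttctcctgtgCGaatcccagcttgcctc
DHRS2: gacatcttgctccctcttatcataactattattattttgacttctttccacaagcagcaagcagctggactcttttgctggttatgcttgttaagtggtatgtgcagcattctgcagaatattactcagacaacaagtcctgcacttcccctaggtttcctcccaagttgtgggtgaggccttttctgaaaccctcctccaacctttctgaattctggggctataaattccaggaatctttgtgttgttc
SYCP3 rose 59.7-fold and DHRS2 134-fold in the mean, the first with and the second without CG in this window. The DHRS2 mean joins unlike changes, since HLY-1 rose far less than Ocily3 and Ocily10. Methylation itself was not measured on the arrays, and a part of CG content in these 2 increases was not tested. Of the genes higher in the ABC lines 83.3% had at least 10 CG in this window, and of those lower 83.2%, against 71.6% of all measured genes (527 of 629, 608 of 723 and 12546 of 15461 genes could be matched). The shares of rising and of falling genes were nearly equal.

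**Figure D1:**
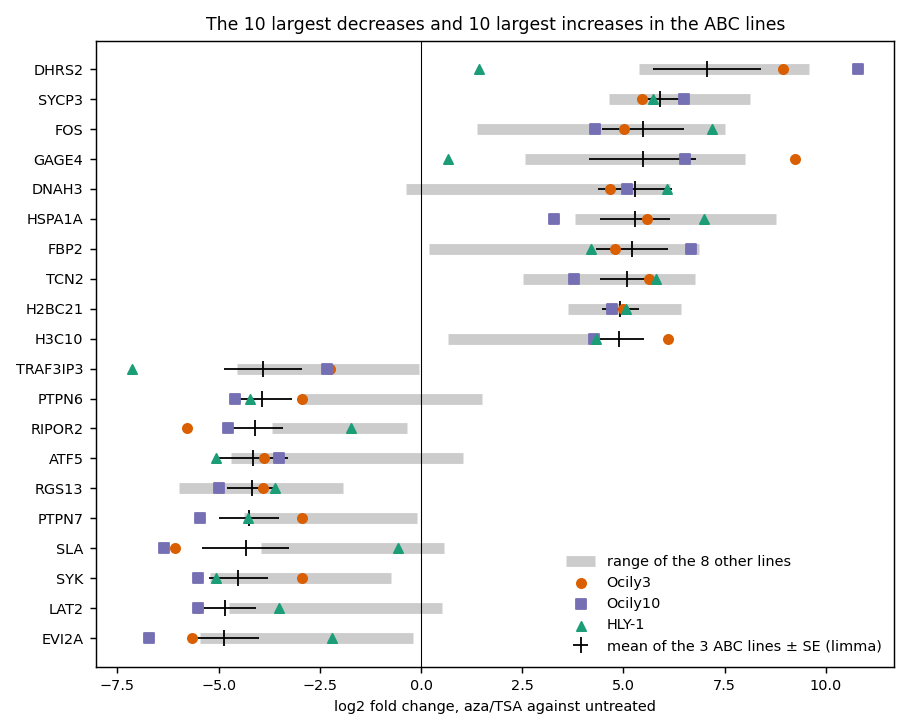
Log2 fold change of the 10 genes with the largest increase and the 10 with the largest decrease among called and detected genes in the ABC lines; colored symbols are the 3 lines, black marks the mean ± SE from limma (n = 3), and grey bars the range over the 8 other lines. HLY-1 lies far from Ocily3 and Ocily10 for DHRS2, GAGE4 and SLA, and SYCP3 and H2BC21 rose alike in the 3 lines.

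Among the 10 largest decreases SYK, the tyrosine kinase that carries the signal of the B-cell receptor, fell from 15.37, 14.78 and 14.18 to 12.43, 9.26 and 9.13. It ended below the array median in Ocily10 and HLY-1 but not in Ocily3 (mean log2 fold change -4.51 ± 0.72, adjusted p = 0.00462). The transmembrane adaptor LAT2 went from 15.83, 16.07 and 12.72 to 10.32, 10.55 and 9.21 (-4.85 ± 0.77, adjusted p = 0.00455). PTPN6 (-3.92), which encodes the phosphatase SHP-1, PTPN7 (-4.24), another phosphatase, RGS13 (-4.17), a brake on G protein signalling, and RIPOR2 (-4.10) fell in all 3 lines as well. So did EVI2A (-4.86) and the transcription factor ATF5 (-4.16). For TRAF3IP3 the log2 fold changes were -2.24, -2.33 and -7.13, so that the mean of -3.90 was -2.29 without HLY-1 (adjusted p = 0.229). For SLA, the Src-like adaptor, the fall was carried by Ocily3 and Ocily10, with log2 fold changes of -6.08, -6.34 and -0.57 (mean -4.33 ± 1.07, adjusted p = 0.032), and it was not called without either of them. Of these 10 genes, SYK, LAT2 and RGS13 stayed called without each of the lines. EVI2A and RIPOR2 were not called without Ocily3 or Ocily10, PTPN6 without Ocily10 or HLY-1, PTPN7 without Ocily10, and ATF5 and TRAF3IP3 without any 1 of the 3.

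Of the 22 measured genes that mark the ABC type, 8 fell, 1 rose and 13 were not called. The share that fell was 36.4%, beside 4.68% of all named genes. The median log2 fold change of the list was -1.30 in Ocily3, -1.86 in Ocily10 and -0.76 in HLY-1, each below the lowest of the other 8 lines, which ranged from -0.41 to 0.75. The median over all named genes was -0.01 in the ABC lines. In 7 of 22 genes (31.8%) the response of all 3 ABC lines lay below that of every other line. This pattern was found for 1.54% of named genes. The 7 include PTPN1, which rose, but less than in the other lines. Before treatment 21 of the 22 were above the array median in all 3 lines, against 7355 of 15461 named genes. The list and its background thus start from unlike levels. The list also collects genes typical of the ABC type, and its untreated median difference from the other lines was 2.68. The part of these starting levels in the shares and in the list medians was not tested.

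BATF, an AP-1 family factor, stood at 15.68, 16.30 and 13.32 in untreated Ocily3, Ocily10 and HLY-1 and at 12.58, 11.38 and 11.55 after treatment. The decrease was smallest in HLY-1, which had least at the start (mean -3.26 ± 0.65, adjusted p = 0.0122), and the call was lost without Ocily3 or without Ocily10. TNFRSF13B, the receptor TACI for the survival factors BAFF and APRIL, fell from 14.11, 16.48 and 14.28 to 10.81, 12.42 and 11.61 (-3.35 ± 0.49, adjusted p = 0.00308). The cytokine gene IL16 fell from 15.34, 13.73 and 13.56 to 11.81, 10.31 and 10.48 (-3.34 ± 0.61, adjusted p = 0.00812). All 3 genes stayed above the array median after treatment, and IL16 was not called without Ocily10.

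The largest fall in the list was that of BLNK, the adaptor downstream of SYK, from 16.76, 18.35 and 13.44 to 14.01, 14.82 and 9.16 (-3.52 ± 0.47, adjusted p = 0.00195). It fell in the other lines too (-3.70). The LIM protein LIMD1 (-2.79), the ETS factor ETV6 (-1.86) and CCDC50 (-1.46), which are outside the rule for named genes and were picked after their values were seen, and CCND2 (-3.13), taken up below, complete the 8. Each of LIMD1, ETV6, CCDC50 and CCND2 lost its call without Ocily10 and without HLY-1, and ETV6 and CCDC50 also without Ocily3. The single increase was PTPN1, a tyrosine phosphatase that acts on JAK and STAT proteins, from 14.45, 14.96 and 12.77 to 16.04, 15.77 and 14.56 (1.40 ± 0.28, adjusted p = 0.0117). Its change in each ABC line was below that in every other line (mean 2.23), and it was not called under median scaling or without Ocily3 or HLY-1.

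Several defining genes were not called. IRF4 went from 15.63, 15.84 and 16.27 to 15.15, 14.49 and 15.10 and so stayed far above the array median in the 3 lines (-1.0 ± 0.96, adjusted p = 0.629). The kinases PIM1 (-0.81, adjusted p = 0.327) and PIM2 (-0.70, adjusted p = 0.391) were not called either. The forkhead factor FOXP1 had levels of 16.74, 15.98 and 13.82 before and 14.89, 14.20 and 13.52 after treatment (-1.31 ± 0.45, adjusted p = 0.11), and its fall was called under median scaling (-1.74, adjusted p = 0.0384).

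**Figure D2:**
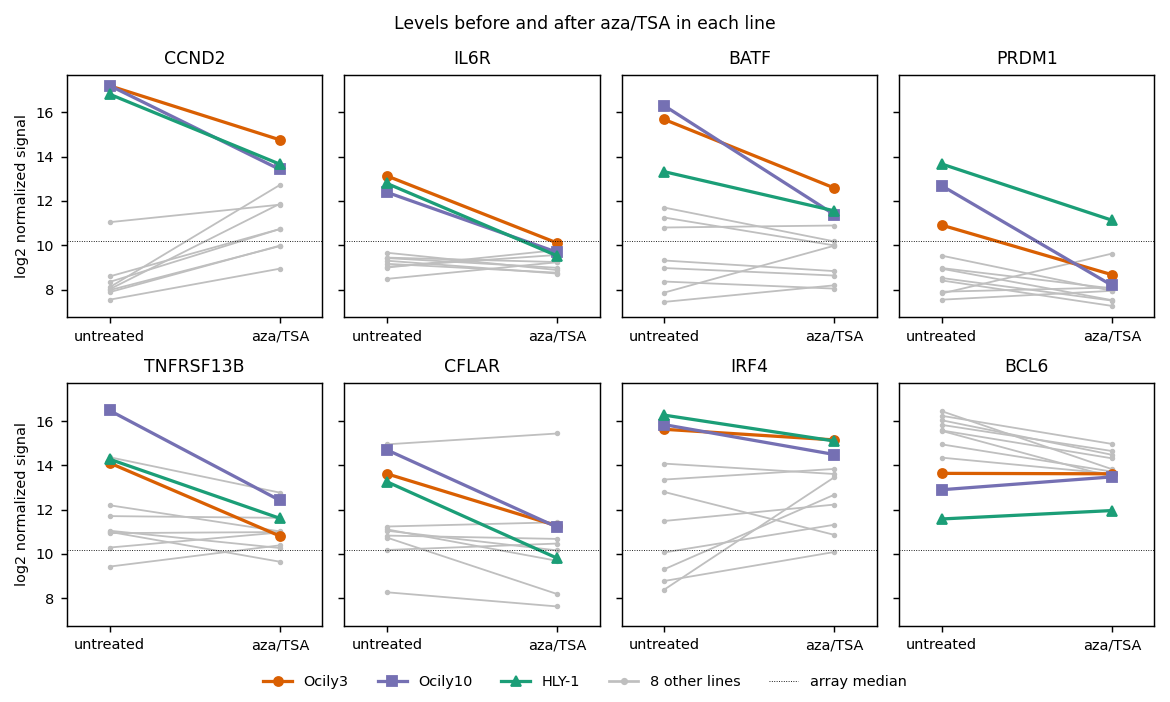
Log2 normalized signal before and after aza/TSA for 8 genes; each line joins the 2 cultures of a cell line, colored for the 3 ABC lines and grey for the 8 others, and the dotted line is the array median of 10.18. CCND2 and IL6R fell from levels above all other lines, IRF4 stayed high, and BCL6 stayed nearly level in the ABC lines while it fell in the others.

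Of 32 measured targets of NF-kB 4 fell (12.5%, background 4.68%), 1 rose and 27 were not called. The list median was -1.47 in Ocily3, -1.04 in Ocily10 and -0.17 in HLY-1, and -1.17 to 1.83 in the other lines. CFLAR, which encodes the caspase-8 inhibitor c-FLIP, fell from 13.62, 14.70 and 13.26 to 11.27, 11.21 and 9.81. All 3 lines lost more than 2 units (-3.10 ± 0.51, adjusted p = 0.00521). FAS, the death receptor, went from 13.36, 12.05 and 14.91 to 11.25, 9.99 and 11.16 (-2.64 ± 0.60, adjusted p = 0.0217) and was not called when any 1 of the lines was left out. The inhibitor gene NFKBIE (-1.67, adjusted p = 0.0436, named after its value was seen, and not called without Ocily3 or Ocily10) and IL10 are the others. SOD2, the mitochondrial superoxide dismutase, was the 1 that rose, from 13.42, 15.86 and 14.22 to 14.87, 17.23 and 15.96 (1.52 ± 0.27, adjusted p = 0.00779), a call lost without HLY-1.

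The classical feedback genes of NF-kB were not called. NFKBIA, the main inhibitor, had levels of 17.24, 16.09 and 15.53 before and 16.96, 16.06 and 15.23 after treatment (-0.20 ± 0.59, adjusted p = 0.898). TNFAIP3, which encodes the deubiquitinase A20, moved from 14.83, 14.28 and 11.30 to 12.77, 13.21 and 11.65 (-0.92, adjusted p = 0.483). Ocily3 and Ocily10 were lower after treatment and HLY-1 was not. The survival gene BCL2A1 (-1.41), the subunits NFKB1 (-1.96), NFKB2 (0.62), REL (0.24) and RELB (-0.89), the chemokines CCL3 (0.89) and CCL4 (-1.52) and the surface protein CD83 (0.11) had adjusted p of 0.123 to 0.965. CCL3 and CCL4 were highest in untreated Ocily10, at 16.31 and 18.40, against 8.28 and 10.70 in Ocily3 and 8.25 and 9.79 in HLY-1. HLY-1 differed from the other 2 lines at the start, since 22 of the 32 targets were above the array median in it, against 30 in Ocily3 and 30 in Ocily10, and CD83 stood at 11.20 there but at 17.60 and 16.22 in the others.

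Upstream of NF-kB, 4 of 25 measured genes of B-cell receptor and Toll-like receptor signalling fell (16.0%) and 0 rose. All 4 belong to the receptor-near part, namely the receptor chain CD79B, the kinases SYK and BTK and the adaptor BLNK. CD79B went from 14.81, 15.83 and 13.06 to 12.68, 13.54 and 9.77 (-2.57 ± 0.47, adjusted p = 0.00807), and was not called without HLY-1. BTK, named after its value was seen, fell from 15.25, 15.35 and 10.69 to 12.49, 13.43 and 9.26 (-2.04, adjusted p = 0.0206; not called without Ocily3 or Ocily10). The adaptor MYD88, in which ABC lymphomas often carry mutations, had levels of 9.89, 12.53 and 10.64 before and 8.70, 10.37 and 7.55 after treatment, lower in each line but not called (-2.14 ± 0.79, adjusted p = 0.14). The 4 called genes fell in the other 8 lines as well, with means between -2.44 and -3.70.

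Of 22 measured genes of IL6, IL10 and JAK-STAT signalling 4 fell (18.2%) and 0 rose. IL6R, the binding chain of the IL6 receptor, fell from 13.13, 12.39 and 12.79 in Ocily3, Ocily10 and HLY-1 to 10.10, 9.68 and 9.52. All 3 lines ended just below the array median, with log2 fold changes of -3.04, -2.71 and -3.28 (mean -3.01 ± 0.35, an 8.05-fold fall, adjusted p = 0.00126), and the call held without each of the lines. The other lines were low throughout, at 8.48 to 9.66 untreated and 8.72 to 9.78 treated. The difference of the response between the sets, -2.97 ± 0.41, just missed the threshold (adjusted p = 0.0509) and its adjusted p was 0.0153 to 0.192 over the alternatives with at least 2 ABC lines, 0.0176 with only detected elements, 0.0823 under median scaling, 0.0844 without Sudhl4 and 0.107, 0.192 and 0.13 without Ocily3, Ocily10 and HLY-1.

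The partner chain IL6ST (0.00, adjusted p = 0.999) and IL6 itself were not called. IL6 was lower after treatment in Ocily3, at 10.65 against 12.00, and in Ocily10, at 9.13 against 10.09, and higher in HLY-1, at 14.34 against 11.79 (mean 0.08, adjusted p = 0.966). IL10 fell in each line, from 10.68, 14.53 and 12.83 to 8.54, 9.01 and 10.47 (-3.34 ± 0.58, adjusted p = 0.00674). MYC, the growth regulator, fell from 18.17, 16.96 and 18.07 to 14.59, 13.88 and 15.95 (-2.93 ± 0.55, adjusted p = 0.00941), as it did in the other lines (-3.26), and STAT6, named after its value was seen, fell by 2.85 (adjusted p = 0.0213). MYC was not called without Ocily3 or Ocily10, and STAT6 not without any 1 of the 3 lines. STAT3 had levels of 14.61, 15.87 and 13.92 before and 16.03, 15.82 and 15.62 after treatment, and was not called (1.02 ± 0.38, adjusted p = 0.137). Its feedback inhibitor SOCS3 was low before and after (-0.19, adjusted p = 0.866).

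The stretch before the RefSeq start of IL6R (GRCh38.p14, chr1:154405093-154405342, plus strand) is shown as an example for a gene that fell. It has 22 CG dinucleotides, in capitals, and 27.6% of all promoters have as many or more. Measured genes had a median of 18, with quartiles of 8 and 26, and genes lower in the ABC lines a median of 20. The count of IL6R is thus ordinary among measured genes.
IL6R: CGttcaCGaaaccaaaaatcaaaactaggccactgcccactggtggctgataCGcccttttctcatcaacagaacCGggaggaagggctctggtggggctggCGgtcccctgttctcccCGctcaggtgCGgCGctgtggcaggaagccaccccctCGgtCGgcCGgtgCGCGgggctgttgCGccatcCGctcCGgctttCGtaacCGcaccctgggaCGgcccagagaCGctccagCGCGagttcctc

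Of 14 measured genes of the plasma cell program 4 fell (28.6%) and 0 rose. In the other lines, where more pairs were tested, 7 fell (50.0%, beside 12.6% of all named genes) and 1 rose. The list median was -0.86 in Ocily3, -1.61 in Ocily10 and -1.33 in HLY-1, and -1.53 to -0.50 in the other lines. The difference between the sets was called for 0 of the 14. PRDM1 went from 10.91, 12.69 and 13.67 to 8.67, 8.19 and 11.13, and HLY-1 alone stayed above the array median (-3.10 ± 0.61, adjusted p = 0.0118; the call was lost without Ocily10). The surface receptor SLAMF7 fell from 13.57, 13.34 and 16.99 to 11.97, 10.31 and 12.78 (-2.95 ± 0.66, adjusted p = 0.0213; not called without Ocily10 or HLY-1), and a second, dimmer element of the gene fell by 3.89 (adjusted p = 0.00126). POU2AF1, the B-cell coactivator OBF1, fell from 17.96, 18.32 and 17.52 to 14.93, 14.55 and 14.01 (-3.44 ± 0.41, adjusted p = 0.00126). The chaperone FKBP11 (-1.48, adjusted p = 0.0144, named after its value was seen, and not called without Ocily10) is the fourth. XBP1, a regulator of the secretory apparatus, had 16.65, 15.58 and 18.49 before and 15.22, 14.69 and 15.57 after treatment (-1.75 ± 1.13, adjusted p = 0.431). Among the 3 lines HLY-1 had the highest untreated levels of PRDM1, XBP1 and SLAMF7, and the immunoglobulin J chain gene JCHAIN, named after its value was seen, was at 18.02 in it but at 8.31 in Ocily3 and 11.02 in Ocily10.

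Of 28 measured B-cell identity genes 8 fell (28.6%) and 0 rose, and the list median was -1.14, -1.55 and -1.16 in Ocily3, Ocily10 and HLY-1, within the -2.39 to -1.02 of the other lines. Besides SYK, BLNK, POU2AF1, CD79B and BTK these were IKZF1 (-3.30), the transcription factor Ikaros, the kinase BLK (-2.90) and FCRLA (-2.10), which were named after their values were seen. All 3 lost the call without Ocily10, and FCRLA also without Ocily3 or HLY-1. For BLK the dimmer of its 2 elements was not called (-0.62, adjusted p = 0.653). The number of these 28 genes above the array median went from 24 to 24 in Ocily3, from 25 to 20 in Ocily10 and from 19 to 10 in HLY-1.

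Of 16 measured germinal center genes RGS13, BCL7A and ITPKB fell (18.8%) and SSBP2 rose (6.25%) in the ABC lines, beside 4.68% and 4.07% of all named genes. In the other lines, with more pairs and with 12.6% of all named genes lower and 13.5% higher, 8 fell (50.0%) and 1 rose (6.25%). The difference between the sets was called for 0 of the 16. ITPKB, named after its value was seen, was not called when any 1 of the lines was left out. The list median was 0.00 in Ocily3, -0.34 in Ocily10 and -0.36 in HLY-1, and between -2.48 and -0.95 in the other 8 lines. Before treatment the median difference of this list from the other lines was -2.37, and its part in this pattern was not tested. BCL6, the repressor that holds the germinal center program, had 13.64, 12.90 and 11.58 before and 13.62, 13.48 and 11.96 after treatment in the ABC lines (0.32, adjusted p = 0.675). It fell in all 8 others (-1.49, adjusted p = 0.00027), and the ABC responses lay above all of theirs, but the difference of 1.81 was not called (adjusted p = 0.236). MME and ELL3, low in the ABC lines from the start, were the other 2 of 3 genes with this pattern, which 0.918% of all named genes showed, and their differences of 2.01 and 2.07 were not called either (adjusted p = 0.27 and 0.287). SSBP2 rose from 8.17, 9.99 and 13.15 to 11.92, 12.55 and 13.94 (2.37 ± 0.57, adjusted p = 0.0278), most in the lines that had least, and was not called under median scaling or without Ocily3 or Ocily10. LMO2 (1.57, adjusted p = 0.511) and the receptor S1PR2 (0.32) were not called.

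**Figure D3:**
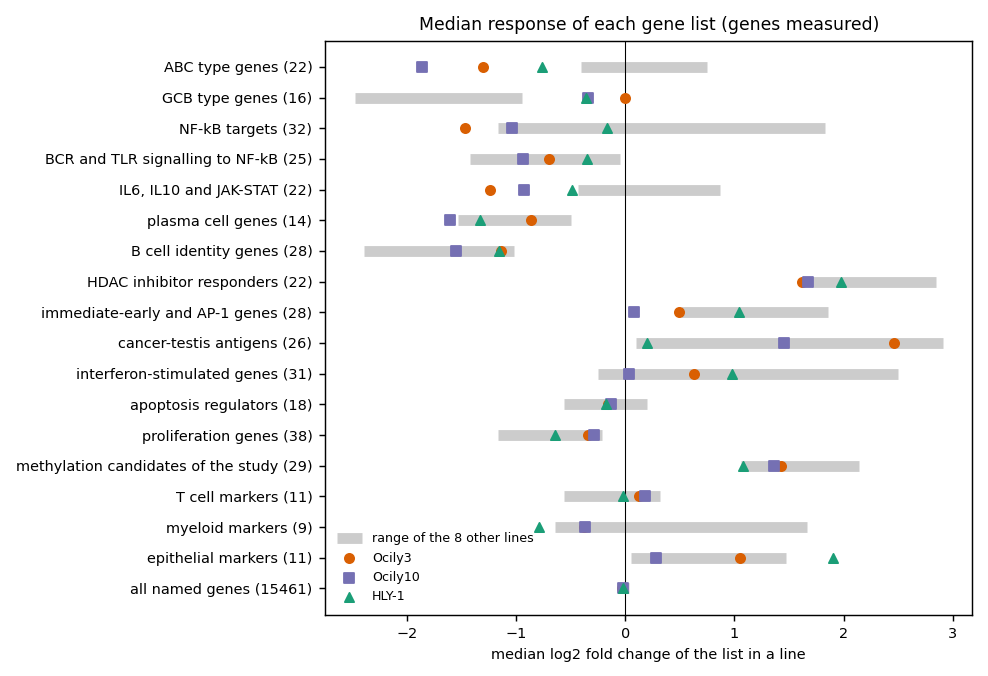
Median log2 fold change of each gene list in each ABC line (colored symbols) and the range of the same median over the 8 other lines (grey bars), with the number of genes measured in brackets. The ABC type list lies below the range of the other lines in all 3 ABC lines, and the GCB type list above it. Before treatment the median differences of these lists from the other lines were 2.68 and -2.37. The part of these starting gaps in the pattern was not tested.

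Of 22 measured genes that histone deacetylase inhibitors commonly induce 7 rose (31.8%, background 4.07%) and 0 fell, with list medians of 1.62, 1.67 and 1.98 in Ocily3, Ocily10 and HLY-1 and 1.71 to 2.85 in the other lines. HSPA2, a germ cell member of the heat shock family, went from 8.83, 8.44 and 9.32 to 13.89, 10.04 and 14.10 (3.81 ± 0.60, adjusted p = 0.00446). It passed the array median in Ocily3 and HLY-1 but not in Ocily10. With DHRS2 and H2BC21 the others, named after their values were seen, were H2BC12 (3.52), the cell cycle inhibitor CDKN2D (2.83), the polyamine enzyme SAT1 (2.73) and SYT11 (2.70), and these 4 stayed called without each of the lines.

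Cancer-testis antigens are germ cell genes, many of which are kept silent by DNA methylation in other tissues. Of 26 measured, 5 rose (19.2%) and 0 fell, with list medians of 2.46, 1.45 and 0.20. Beside SYCP3 and GAGE4 these were MAEL, a factor of the germ cell piRNA pathway, from 10.53, 10.93 and 10.82 to 16.16, 16.56 and 14.14 (4.86 ± 0.77, adjusted p = 0.00444), and, named after their values were seen, BRDT (3.24), which was not called without Ocily3 or Ocily10, and MAGEC2 (2.93), not called without Ocily10. For MAGEC2, a MAGE family member, levels went from 8.43, 7.84 and 11.53 to 11.19, 12.15 and 13.26. Its responses lay above those of every other line (-0.55 to 1.65), but the difference of 2.28 was not called (adjusted p = 0.335).

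Of 28 immediate-early and AP-1 genes 3 rose (10.7%), namely FOS, DUSP1 and, named after its value was seen, NR4A1, and MYC fell (3.57%). Among all named genes 4.07% rose and 4.68% fell. Of 31 interferon-stimulated genes IFI6 (3.14) and HERC5 (2.13) rose (6.45%) and OAS2 (-2.52) fell (3.23%), shares near those of all named genes. OAS2 fell on 1 of its 2 elements (the other -1.64, adjusted p = 0.189). Of 18 apoptosis regulators CFLAR and the BH3-only gene BID (-2.18) fell (11.1%) and 0 rose. Of 38 proliferation genes thymidine kinase TK1 rose, from 13.29, 14.08 and 15.93 to 15.66, 16.49 and 17.85 (2.24 ± 0.31, adjusted p = 0.00225), and cyclin A2 (CCNA2, -1.30) fell. Each is 2.63% of the list, below the share of all named genes. In the other lines 20 of the 38 fell (52.6%), beside 12.6% of all named genes, with more pairs tested. The difference was called for 0 of the 38. The list medians of the ABC lines, -0.34, -0.29 and -0.64, lay within the -1.17 to -0.21 of the others. Of the markers of other cell types 0 of 11 T cell and 0 of 9 myeloid genes were called. Of 11 epithelial genes ELF3 (3.14) and KRT18 (2.23) rose (18.2%), with the epithelial list medians at 1.05, 0.28 and 1.90. HERC5, KRT18, CCNA2 and NR4A1 were not called when any 1 of the lines was left out, IFI6 and OAS2 not without Ocily10 or HLY-1, and HERC5, KRT18 and NR4A1 not under median scaling.

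The study followed up 30 candidate genes for promoter methylation, of which 29 were measured here. It chose them on these same arrays, so their direction is no independent evidence. In the ABC lines 6 rose (20.7%) and 1 fell, whereas 24 rose and 1 fell in the other lines (13.5% and 12.6% of all named genes there), where more pairs were tested. FOS, DUSP1, which encodes a phosphatase of MAP kinases, MYLIP, an E3 ligase for the LDL receptor, the ubiquitin ligase HERC1, PITHD1 and the vesicle protein TMED2 rose, the last 3 named after their values were seen. Among them MYLIP alone stayed called without each of the lines, and HERC1 and TMED2 were not called under median scaling. MYLIP went from 11.94, 9.33 and 11.73 to 13.47, 13.11 and 13.58 (2.39 ± 0.40, adjusted p = 0.00546). RCC1L, the candidate that fell, went from 13.78, 14.23 and 13.35 to 11.90, 12.04 and 11.53 (-1.96 ± 0.25, adjusted p = 0.00168). A second, dimmer element of RCC1L was not called (0.39, adjusted p = 0.858), nor was the mean over both elements (-0.79, adjusted p = 0.347).

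Of the candidates named by the rule for their part in the study, 7 were not called. The desmosome gene DSP had 9.77 before and 12.23 after treatment in Ocily3, 9.17 and 12.07 in Ocily10, and 8.55 and 8.22 in HLY-1 (mean 1.67, adjusted p = 0.348). MTSS1, an actin regulator, had the same pattern, with 9.50 and 11.19, 8.43 and 12.32, and 8.22 and 8.26 (1.88, adjusted p = 0.139). HLY-1 thus kept low levels of both. The Wnt receptor FZD8 was low in all 6 cultures, between 7.54 and 9.78 (0.49, adjusted p = 0.679). The channel gene KCNH2 (0.92), the phosphatase inhibitor PPP1R14A (1.18), the Krüppel-like factor KLF9 (0.64) and the nuclear receptor NR4A2 (2.03) had adjusted p of 0.084 to 0.717.

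**Figure D4:**
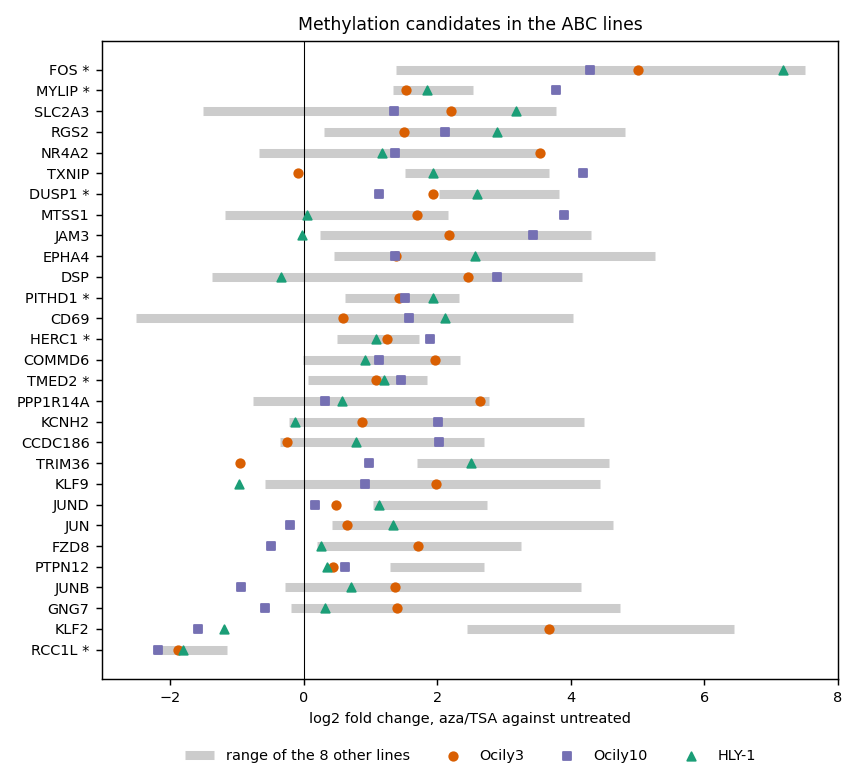
Log2 fold change of the 29 measured candidates in the 3 ABC lines (colored symbols) and the range over the 8 other lines (grey bars); an asterisk marks an adjusted p under 0.05 for the ABC mean. All 3 ABC lines moved the same way for the 7 marked genes, and HLY-1 stayed near 0 for MTSS1 and JAM3.

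The response of the ABC lines differed from that of the other 8 lines for 4 elements by the test of the difference itself. The difference, ABC minus other lines, was positive for 2 and negative for 2 (0.00608% of all elements each, or 0.0129% of the named genes each). Its sign does not give the size of the response, since S100Z and CCND2 moved in opposite directions in the 2 sets. An unadjusted p under 0.05 was found for 2477 elements (7.53%). All 4 had in common that the untreated level already separated the sets. PRAME, a cancer-testis antigen, was high in untreated Ocily3, Ocily10 and HLY-1, at 14.58, 17.27 and 15.12, and stayed so after treatment, at 15.19, 16.33 and 14.64 (-0.27 ± 0.46, adjusted p = 0.805). In the other lines it rose from 8.53 to 11.05 up to 12.14 to 15.89 (4.72, adjusted p = 2e-06), so that after treatment the ranges overlapped. The difference of the responses was -5.00 ± 0.53 (adjusted p = 0.00788).

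CCND2 moved toward a common level from both sides. It fell in the ABC lines from 17.20, 17.21 and 16.82 to 14.76, 13.42 and 13.66 (-3.13 ± 0.60, an 8.78-fold fall, adjusted p = 0.0103). It rose in each of the other 8 lines, whose untreated levels were 7.54 to 11.04 and whose treated levels were 8.94 to 12.72 (2.41, adjusted p = 0.00049). All ABC cultures stayed above all others after treatment, and the difference of the responses was -5.54 ± 0.70 (adjusted p = 0.0316).

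S100Z, a calcium-binding protein of the S100 family, rose in the ABC lines from 7.27, 8.78 and 7.67 to 8.55, 10.24 and 9.42, which is low in 5 of the 6 cultures (1.5 ± 0.35, adjusted p = 0.0259; not called without any 1 of the lines). It fell in every other line, by 1.68 to 3.48 from a median of 13.06 (difference 4.17 ± 0.41, adjusted p = 0.00663). GFOD1 rose from 10.63, 8.65 and 8.30 to 12.65, 11.62 and 10.60 (2.43 ± 0.31, adjusted p = 0.00156) and stayed at 12.23 to 13.71 in the treated other lines, which had 12.28 to 14.51 untreated (difference 2.79 ± 0.36, adjusted p = 0.0316). Without Ocily3 the differences of PRAME (-5.44) and S100Z (4.28) stayed called and those of CCND2 (-5.89) and GFOD1 (2.99) did not, and without Ocily10 or without HLY-1 0 of the 4 did. CCND2 (-5.59) and GFOD1 (2.77) were not called without Sudhl4 either (adjusted p = 0.0729 each), and GFOD1 was not called under median scaling (2.65, adjusted p = 0.0881). With HLY-1 as the only ABC line, so that all lines shared the RPMI medium, they were -5.21 for PRAME, -5.58 for CCND2, 4.42 for S100Z and 2.66 for GFOD1, with adjusted p of 0.0704 to 0.146. With Ocily3 as the only ABC line and without Sudhl4, they were -4.04, -4.89, 3.87 and 2.36, with adjusted p of 0.34 to 0.6.

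The stretch before the RefSeq start of S100Z (GRCh38.p14, chr5:76874373-76874622, plus strand) is shown because its gene had the largest called positive difference between the sets. With 4 CG dinucleotides, in capitals, it is poor in them, and 69.9% of all promoters have as many or more.
S100Z: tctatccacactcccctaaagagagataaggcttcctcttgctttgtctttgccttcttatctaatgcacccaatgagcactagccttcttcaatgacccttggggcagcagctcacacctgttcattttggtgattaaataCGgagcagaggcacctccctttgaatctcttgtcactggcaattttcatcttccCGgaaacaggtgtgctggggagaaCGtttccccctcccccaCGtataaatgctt

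**Figure D5:**
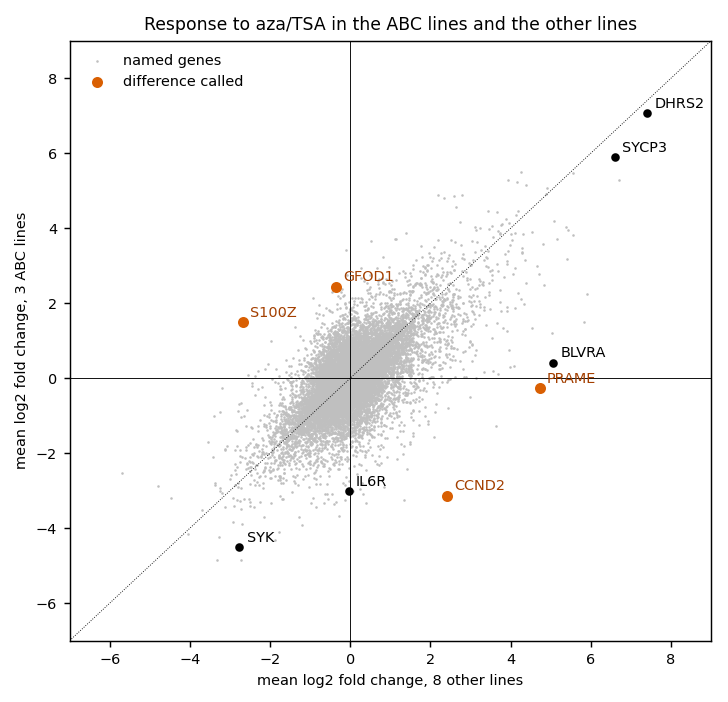
Mean log2 fold change after aza/TSA in the 8 other lines (horizontal axis) against that in the 3 ABC lines (vertical axis), 1 point per named gene; orange points are the 4 genes whose difference was called, black points further genes named in the text, and the dotted line marks equal responses. PRAME and CCND2 lie below the dotted line, GFOD1 and S100Z above it.

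Further genes had a small p for this difference without passing. BLVRA, biliverdin reductase A, was high before and after treatment in the ABC lines, at 15.40, 15.68 and 15.61 and at 16.12, 16.15 and 15.67, and rose in the others by 2.60 to 6.99 (difference -4.64, adjusted p = 0.0893). SH3PXD2A, a scaffold protein of invasive cell protrusions, had 11.61, 12.62 and 13.67 before and 11.16, 10.68 and 11.38 after treatment, and rose in the 8 others on its brightest element (-3.65, adjusted p = 0.0893). Its other 2 elements had differences of -0.11 and -0.91 and did not rise in the other lines (-0.45 and -0.30), and the mean over the 3 elements gave -1.56 (adjusted p = 0.198). IL7, a growth factor of lymphocytes, fell from 13.03, 13.55 and 10.32 to 10.36, 9.98 and 6.85 (-3.24 ± 0.64, adjusted p = 0.0117; not called without Ocily10 or HLY-1) and was called higher in the other lines (1.35), with a difference of -4.58 (adjusted p = 0.126). In the other direction were LCMT2 (2.39), BCAS4 (1.84), the tachykinin precursor TAC1 (3.16), the channel subunit KCNK7 (3.08) and TMEM245 (2.13), with adjusted p of 0.126 to 0.207. Of these, TAC1 went from 9.84, 7.92 and 7.44 to 14.42, 10.06 and 11.73 and was at most 9.70 in the treated cultures of the other lines. The sialyltransferase ST3GAL1, 1 of the 6 elements called in opposite directions and named after its value was seen, fell from 13.28, 13.60 and 14.67 to 11.61, 11.56 and 13.24 (-1.71, adjusted p = 0.0466; not called without any 1 of the lines) and rose elsewhere (1.5, adjusted p = 0.00218), with a difference of -3.21 (adjusted p = 0.128).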

How the data were processed

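RNA of 22 cultures was hybridised, 1 array each, to the Applied Biosystems Human Genome Survey Microarray, in which labelled cRNA is read by chemiluminescence. The authors deposited the raw intensity of each element and log2 values, which per the methods were normalized with Bioconductor tools. The log2 table equals quantile normalization of the deposited intensities to within 5.0e-09, and each column has the same median, so the level of all RNA cannot be compared between arrays. The columns were matched to lines and treatment through the array titles. Of 32878 elements, 17073 have exactly 1 gene symbol in the platform annotation (15461 genes), 139 have several and 15666 are unnamed here. For a gene with several elements, the one with the highest mean over all arrays was used.

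For each line the untreated value was subtracted from the treated one, and limma 3.58.1 (R 4.3.3, lmFit and eBayes) was fitted to the 11 differences with 1 mean for the 3 ABC lines and 1 for the 8 others. P-values were adjusted by Benjamini-Hochberg over all elements, with a threshold of 0.05. The difference of both means is the test of unlike response. This subtraction takes the cell line as a block: the same line's 2 arrays deviated together (correlation 0.361 to 0.585 in the 11 lines, highest value between lines 0.180), and they come from the same cell line. Untreated arrays were compared by the same tool, 3 against 8. Nothing in the sources says that cultures were repeated, so the p-values measure the spread between lines. On simulated differences with 200 changed elements the fit recovered 0% of 2-fold, 39% of 4-fold and 74% of 8-fold changes in the ABC mean. It recovered 28% and 60.5% of 4-fold and 8-fold differences between the sets. A fit to the 3 pairs alone recovered 0% of 2-fold, 4-fold and 8-fold changes. The noise was drawn from the spread over the 11 differences, and more elements were called in the data than were changed in the simulation. These shares need not hold for the data.

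An element was called detected when it was above the array median in at least 2 of the 3 arrays of the higher condition. The text names the 10 largest increases and decreases among called and detected genes that changed the same way in 3 of 3 lines, the 3 largest called changes of each list with the largest in the opposite direction, the 6 smallest p each way for the difference, and a set of defining genes. Outside this rule, and named after their values were seen, are BLK, BRDT, BTK, CCDC50, CD44, CDKN2D, ELL3, ETV6, FCRLA, FKBP11, GCSAM, H2BC12, HERC1, IKZF1, IL6ST, ITPKB, JAM3, JCHAIN, LIMD1, MAGEC2, NFKBIE, NR4A1, PITHD1, SAT1, ST3GAL1, STAP1, STAT6, SYT11 and TMED2. Members, gene lists and tests were chosen with earlier results of these data known. Promoter windows of 250 bases before the start are RefSeq's on GRCh38.p14, with 12546 of 15461 genes matched by symbol. Alternatives were median scaling or no normalization, a floor at the 25th percentile, the detected elements only, other estimates of the spread, no block, another choice of element and the omission of lines.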

Additional observations from a re-analysis of the deposited data

Results flagged for a closer look

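The response of the 3 ABC lines differed from that of the 8 other lines by limma's test of the difference, with adjusted p under 0.05, for 4 named genes. The differences in log2 fold change, ABC minus other lines, were -5.00 for PRAME, -5.54 for CCND2, 4.17 for S100Z and 2.79 for GFOD1. For each of them the untreated levels of the ABC lines and of the other lines did not overlap.

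For a further pair of genes every ABC line moved one way and every other line the opposite way, while the test of the difference missed the threshold. BCAS4 was 0.25, 0.11 and 0.57 higher after treatment in Ocily3, Ocily10 and HLY-1 and lower in the 8 others (difference 1.84, adjusted p = 0.127). SH3PXD2A had log2 fold changes of -0.45, -1.94 and -2.28 in the ABC lines and was higher after treatment in the 8 others (difference -3.65, adjusted p = 0.0893). This holds for the brightest of its 3 elements, since the other 2 had means of -0.45 and -0.30 in the other lines, and the difference over the mean of the elements was -1.56 (adjusted p = 0.198).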

How the results depend on the processing

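In the main result 959 elements were higher and 1135 lower in the ABC lines. With 1 line left out the counts were 251 to 503 and 262 to 501, with the 3 pairs alone 0 and 0, with the lines in RPMI only 57 and 54, and without HLY-1, Ocily10 and Sudhl4 7 and 0. The higher count was 496 under median scaling and 325 without normalization, of which 493 and 325 were among the 959. The fits with the lines in RPMI only and without HLY-1, Ocily10 and Sudhl4 each leave a single ABC pair. Their counts therefore cannot show an effect of medium or of the arrays that stood apart. With only detected elements 1527 were higher and 1846 lower. Without the replicate block, that is without pairing the arrays of a line, the counts were 181 and 145, all of them among the calls with the block. The cause of these shifts was not tested, beyond the smaller number of lines or elements that some settings have by construction. The counts stayed within 1.5 times the main ones with a floor, a mean-variance trend, a mean per lymphoma type and values recomputed from the raw signals.

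Elements with a larger response in the ABC lines numbered 2, and 1 under median scaling, 1 without normalization, 4 with the floor, 1 with a mean per lymphoma type, 5 with the mean-variance trend, 0 without the replicate block, 12 with the lines in RPMI only, 1 without Sudhl4 and 0 to 1 with 1 ABC line left out. Those with a smaller response numbered 2, and 5 without normalization, 27 with the trend, 8 with the floor, 7 among detected elements, 1 with a mean per lymphoma type, 1 without the replicate block, 0 without HLY-1, Ocily10 and Sudhl4, 1 without Sudhl4 and 0 to 5 with 1 ABC line left out. The counts with the lines in RPMI only and without HLY-1, Ocily10 and Sudhl4 again rest on a single ABC pair. Elements higher in the untreated ABC lines numbered 103, 52 without normalization and 55 to 187 with 1 line left out. Those lower numbered 52, and 33 to 77 with 1 line left out. Elements at least 2-fold higher in all ABC lines numbered 871, and 572 under median scaling, 490 without normalization, 1935 at 1.5-fold, 328 at 3-fold and 1519 to 1782 with 1 line left out. Those at least 2-fold lower numbered 896, and 1299 under median scaling, 1296 without normalization, 2180 at 1.5-fold, 240 at 3-fold and 1622 to 1817 with 1 line left out.

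Of the 58 genes named by rule and called in the ABC lines, 26 stayed called without each of the 3 lines, and no called gene changed its direction under any alternative. An array has no read depth, and its low signals limit it instead: S100Z lay below the array median in 5 of the 6 ABC cultures, and its change in the ABC lines was not called with the floor.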
